A study of Arabidopsis thaliana with 36 samples.

Results

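Leaves of 35 DAS Arabidopsis thaliana plants were compared between ZT21, late in the dark, and ZT9, in the middle of the light period, to ask which transcripts of an old leaf differ between day and night. The comparison holds 6 of the 36 libraries of the study, 3 for each time, chosen by the age and the time in their titles. Plants of the accession Col-0, with no allele or treatment named, grew at 22 °C under 16 h of white light at 100 µmol m−2 s−1 and 8 h of dark. ZT is the time in hours since the lights came on, and DAS is the usual shorthand for days after sowing. Polyadenylated RNA of rosette leaves was sequenced on an Illumina NovaSeq, with TruSeq libraries. The sample labels name the third and the fourth leaves and the series text the third leaf, and whether plants were pooled is not given in the sources used here. The other libraries cover ZT1, 5, 13 and 17 at 35 DAS and all 6 times at 21 DAS, and the series title names the question, how the daily timetable of expression rhythms shifts in aged plants. Values are FPKM, which divide the fragments of a transcript by its length and by the size of the library, and were summed over the transcripts of a locus. In whole leaves, fewer cells of a type and less RNA per cell cannot be told apart.

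The plant circadian clock is a network of transcription factors that repress one another in turn over the day. CCA1 and LHY, with their REVEILLE relatives, are made around dawn. The pseudo-response regulators follow from morning to evening, and the evening complex of ELF3, ELF4 and LUX acts at dusk. Through evening elements and G-boxes in promoters these factors time photosynthesis, starch turnover, cold tolerance and defence. An ageing leaf keeps these rhythms while senescence factors of the NAC and WRKY families start to move nutrients out of it.

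Sums of FPKM ran from 839754 to 887981 at ZT9 and from 829518 to 883077 at ZT21, and 16714 to 16725 loci reached 1 FPKM at ZT9 against 16889 to 17131 at ZT21. Relative depth, read from the steps of low FPKM values, was 0.885 to 0.900 at ZT9 and 0.784 to 0.807 at ZT21, where the median of all 36 libraries is about 1. Log2 values correlated at 0.9647 to 0.9746 between libraries of one time and at 0.8843 to 0.9301 between times. Leaf identity was checked with markers: the summed FPKM of 6 root markers was 14.0 to 26.8 and of 6 flower markers 1.86 to 12.9 over the 6 libraries, against 1226 to 1374 for 6 phloem markers at ZT9 and 1724 to 1874 at ZT21. COBL9 of the root and AP1 of the flower were at 0 in all 6 libraries. Of the phloem markers, the sucrose exporter SWEET11 was higher at ZT21 by 1.00 ± 0.16 log2 (adjusted p = 0.000304) and the regulator APL by 0.42 ± 0.11. The call for APL was lost after rescaling and without replicate 1 or 3 of ZT21. SULTR2;1, a sulfate transporter, was lower in every library of ZT21 (log2 −0.46 ± 0.23), which passed the test after rescaling (adjusted p = 0.045) and not before (0.142). Of 6 guard cell markers 2 were called higher, HT1 and FAMA, and after rescaling 0. Over all loci 19.5% were called higher and 8.06% lower. The call of HT1 was lost without replicate 1 or 3 of either time. Of 4 epidermis markers tested, the regulator ATML1 was called lower (log2 −0.49 ± 0.17, adjusted p = 0.0402), also after rescaling, but not without replicate 1 or 3 of ZT21 or replicate 2 or 3 of ZT9. The part of these cell types in the results was not tested.

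At ZT21, 3503 loci were higher and 1446 lower than at ZT9, of 17937 tested with limma on log2(FPKM + 1) at a Benjamini-Hochberg adjusted p under 0.05. That is 19.5% higher, 8.06% lower and 27.6% in either direction. Changes of at least 2-fold on the log2(FPKM + 1) scale made up 1089 of the higher and 654 of the lower loci, and changes of at least 8-fold were more often falls (72) than rises (45). The median locus was 0.17 log2 higher at ZT21. After each library was rescaled by the median ratio over loci, which sets that median to 0.00, 1980 loci were higher (11.0%) and 2311 lower (12.9%), so 46.1% of calls were rises in place of 70.8%. All 1980 and all 1446 of the smaller sets were called the same way under both scalings, and 0 loci were called in opposite directions. Of loci called higher, 2035 had their highest mean of the 6 times at ZT21 itself, 699 at ZT17 and 607 at ZT1. Of loci called lower, 945 peaked at ZT9 and 287 at ZT5, but 476 had their lowest mean at ZT21 and 576 at ZT1. The p-values and SE of this comparison rest on the spread between libraries within a time, pooled over the 6 times of this age (18 libraries). They do not rest on the compared libraries alone. The series text calls the libraries biological replicates, and the titles number them as batches.

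The clock genes gave some of the widest swings of the leaf. Of 14 morning clock factors, 8 were higher at ZT21 and 3 lower, with a median log2 change of 1.46. The 14 day and evening factors had 9 lower and 4 higher, with a median of −2.19 against 0.17 over all loci. RVE2, a REVEILLE MYB factor also called CIR1, had 1.51, 2.54 and 2.25 FPKM in the 3 libraries of ZT9 and 202, 393 and 240 at ZT21. This was the largest rise called in the leaf, 133-fold in the means and 6.45 ± 0.30 (SE) on the log2 scale (adjusted p = 2.24e-09). LHY, a MYB repressor at the core of the clock, went from 3.54, 3.32 and 3.58 FPKM to 222, 196 and 226 (log2 5.59 ± 0.56, adjusted p = 5.7e-06). Its level at ZT21 was still below its mean of 594 FPKM at ZT1. CCA1, the partner of LHY, had 9.84, 11.0 and 11.3 FPKM at ZT9 and 122, 104 and 143 at ZT21, a rise of 3.39 ± 0.45. RVE1, which links the clock to auxin synthesis in seedlings, rose from under 1 FPKM in all 3 libraries of ZT9 to 34.7, 55.6 and 57.1. RVE8 and RVE4, activators of evening genes, rose by 3.80 ± 0.18 and 2.85 ± 0.19 log2, with every library of ZT21 above every library of ZT9.

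Not all members of the morning list rose. RVE3, a close relative of RVE8, rose by 1.68 ± 0.42, while RVE7 fell by 1.65 on the log2 scale, from 12.9, 15.4 and 9.37 FPKM to 3.15, 3.49 and 3.11. RVE6 was lower by a small amount (log2 −0.56 ± 0.16), a call lost without replicate 1 of ZT21 or replicate 3 of ZT9. RVE5 had overlapping libraries, with a log2 value of 0.23 ± 0.16. The LNK genes, coactivators that work with RVE8, split. LNK1 fell from 79.2, 81.8 and 79.4 FPKM to 6.91, 2.05 and 10.5 (log2 −3.64 ± 0.42). LNK2 rose from 22.3, 23.3 and 27.7 FPKM to 65.7, 31.1 and 100 (log2 1.25 ± 0.39, adjusted p = 0.0271). Its call was lost after rescaling and without replicate 1 or 3 of ZT21 or replicate 1 or 2 of ZT9, and its locus overlaps AT3G54490. LNK3 and LNK4 overlapped between times, with replicate 2 of ZT21 the lowest and replicate 3 of ZT21 the highest of all 6 libraries in both. The same replicate 2 was the lowest library of ZT21 for LNK1 and LNK2.

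GI, a scaffold protein that stabilises the photoreceptor ZTL and promotes flowering, fell most among the evening genes. It had 81.1, 110 and 82.2 FPKM at ZT9 and 0.349, 0.285 and 0.0958 at ZT21, 375-fold lower in the means (log2 −6.20 ± 0.27, adjusted p = 1.46e-09). FKF1, a blue-light receptor that partners GI in flowering, fell from 63.7, 63.3 and 72.2 FPKM to 1.00, 1.47 and 1.57. All 3 libraries of each time lay far apart for both genes. The pseudo-response regulators, repressors of CCA1 and LHY, fell by 3.58 (PRR9), 4.66 (PRR7), 3.46 (PRR5) and 2.29 (PRR3) on the log2 scale. TOC1, the last of that series in the day, had 43.1, 52.2 and 41.8 FPKM at ZT9 and 33.3, 35.7 and 30.1 at ZT21. It did not pass the test as deposited (log2 −0.45 ± 0.21, adjusted p = 0.119) and did after rescaling (adjusted p = 0.0404, log2 −0.64). In the evening complex, LUX, its DNA-binding part, fell by 2.35 and ELF4 by 1.77 on the log2 scale. BOA, a paralogue of LUX, went the other way, from 2.25, 1.06 and 1.01 FPKM to 5.96, 8.02 and 7.46. CHE, a TCP factor that represses CCA1, fell by 2.1 on the log2 scale.

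Small rises made up the rest of the evening list. The scaffold ELF3 rose by 0.70 ± 0.20, the photoreceptor ZTL by 0.39 ± 0.12 and its relative LKP2 by 0.36 ± 0.12 on the log2 scale, and all 3 calls were lost after rescaling. The call of ELF3 was also lost without replicate 1 of ZT21 or replicate 1 or 3 of ZT9, that of ZTL without replicate 3 of ZT21 or any 1 library of ZT9, and that of LKP2 without any 1 library other than replicate 1 of ZT21. The count of 4 risers in the list fell to 2 without replicate 3 of ZT21 or replicate 2 of ZT9, and to 1 without replicate 1 or 3 of ZT9. The 9 falls were called in every one of these settings. ELF3 overlaps AT2G25940 and LKP2 overlaps AT2G18917, and the strand used in counting is not given, so reads of such neighbours cannot be told apart.

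**Figure D1:**
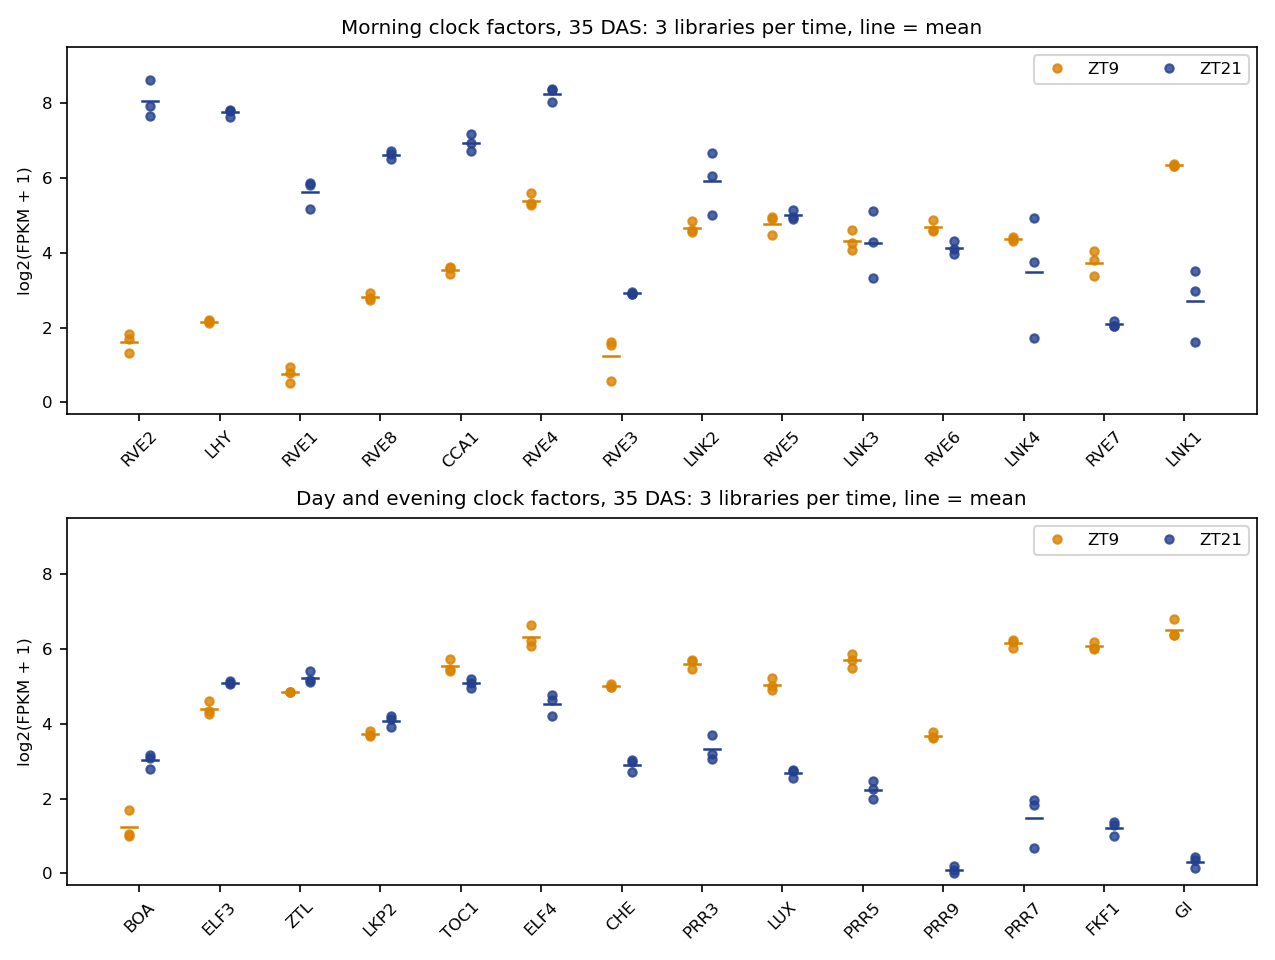
FPKM of the clock genes as log2(FPKM + 1), with 3 libraries per time as dots and their mean as a line, in order of the change from ZT9 (orange) to ZT21 (blue). RVE2, LHY, RVE1, RVE8, CCA1 and RVE4 stand higher at ZT21 in every library, and GI, FKF1, PRR7 and PRR9 lie near 0 to 2 at ZT21.

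The promoters shown are those of the 2 largest rises and the 2 largest falls among clock genes whose window holds at least 1 of the motifs through which clock factors bind one another's genes. GI, the largest fall of all clock genes, held 0 matches of the 3 motifs in its window and is not shown. Each is the 250 bases before the gene start in the RefSeq annotation of TAIR10.1, read 5′ to 3′ on the strand of the gene. Capitals mark the evening element AAAATATCT, the CCA1-binding site AAAAATCT or the G-box CACGTG, each searched on both strands. RVE2 lies on the minus strand (chr5:14753089-14753338) with a CCA1-binding site whose first base is 244 before the start and a G-box at 163. LHY is on the minus strand (chr1:37872-38121) with a G-box at 80. FKF1 is on the plus strand (chr1:25508389-25508638) with an evening element at 186, which reads AGATATTTT on this strand. PRR7 is on the minus strand (chr5:642031-642280) with a G-box at 201.
RVE2: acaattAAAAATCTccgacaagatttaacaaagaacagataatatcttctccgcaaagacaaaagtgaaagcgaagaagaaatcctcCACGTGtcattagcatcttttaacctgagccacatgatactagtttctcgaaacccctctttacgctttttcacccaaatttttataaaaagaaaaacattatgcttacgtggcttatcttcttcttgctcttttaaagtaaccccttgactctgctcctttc
LHY: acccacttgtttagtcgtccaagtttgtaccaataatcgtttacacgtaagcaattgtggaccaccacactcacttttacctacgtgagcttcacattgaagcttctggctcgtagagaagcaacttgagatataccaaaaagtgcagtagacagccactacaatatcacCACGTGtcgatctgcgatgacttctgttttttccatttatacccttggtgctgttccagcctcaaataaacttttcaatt
FKF1: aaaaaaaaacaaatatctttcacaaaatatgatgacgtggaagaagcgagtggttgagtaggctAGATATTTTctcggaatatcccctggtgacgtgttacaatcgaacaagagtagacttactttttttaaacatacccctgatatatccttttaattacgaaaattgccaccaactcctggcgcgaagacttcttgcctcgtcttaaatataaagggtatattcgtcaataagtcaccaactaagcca
PRR7: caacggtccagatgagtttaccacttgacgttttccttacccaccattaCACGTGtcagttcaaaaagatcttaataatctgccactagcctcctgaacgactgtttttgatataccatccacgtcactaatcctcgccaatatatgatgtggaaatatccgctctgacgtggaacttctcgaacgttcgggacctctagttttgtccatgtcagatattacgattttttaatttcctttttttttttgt

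The evening element was in 2.63% of the 17397 promoter windows of tested loci, in 1.2% of windows of loci called higher and in 9.35% of those called lower. Among loci lower by at least 3 log2 units it was in 14 of 70 windows (20%), and among loci higher by as much in 1 of 45. The G-box was in 7.47% of all windows, in 7.39% and 11.1% of those called higher and lower, and in 7 of 14 morning clock genes. CCA1-binding sites differed less, at 6.87%, 6.49% and 8.92% in the same order, and the letters AAAAATCT and AAAATATCT do not overlap as full matches. These shares are descriptions of letters in windows of one length, with no test of binding.

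Output genes of the clock moved both ways, with 6 of 13 higher and 5 lower (median 0.43). GRP7, an RNA-binding protein with a feedback loop of its own, fell from 4679, 4635 and 5155 FPKM to 307, 254 and 284, 17.1-fold lower in the means. COR27, a cold and light regulated partner of COP1, fell by 2.76 on the log2 scale. COL2, a B-box gene related to CONSTANS, rose from 4.26, 3.49 and 3.34 FPKM to 45.6, 43.4 and 87.0, and CDF2, a repressor of CONSTANS transcription, rose by 3.05 ± 0.19. CO itself, which was picked from the list for its role and not by size, had 0.288, 0.241 and 0.397 FPKM at ZT9 and 9.18, 6.30 and 7.41 at ZT21. FT, the florigen gene that CO activates, lay at 0.658 to 3.14 FPKM with overlapping times.

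Cold-regulated genes formed the list with the lowest median, −2.94, and 16 of 17 tested members were lower at ZT21. CBF3, a transcription factor of the cold response, had 101, 94.0 and 107 FPKM at ZT9 and 0.582, 1.04 and 0.308 at ZT21 (log2 −5.97 ± 0.37, adjusted p = 4.3e-08). COR15B, a chloroplast protein that protects membranes in frost, fell from 2382, 2336 and 2626 FPKM to 26.0, 41.8 and 25.5, 78.7-fold lower in the means. RD29A, a target of the CBF factors, fell 51.0-fold and GOLS3, a galactinol synthase of raffinose synthesis, 74.0-fold in the means. These genes peaked at ZT9 of the 6 times, with COR15B at 39.9 FPKM at ZT1 and 2448 ± 156 (SD, n = 3) at ZT9. The call of CBF2 was lost without replicate 2 or 3 of ZT21 or replicate 1 or 2 of ZT9, and that of RS5 without any 1 library other than replicate 1 of ZT9. Between 14 and 15 falls were called whichever library was left out. ZAT12, a zinc finger gene of general stress, was the 1 member that rose (log2 2.52 ± 0.74), a call lost without replicate 1 of ZT21 or replicate 2 or 3 of ZT9. CBF1, CBF2 and CBF3 are close copies side by side, and how shared reads were counted is not given.

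Genes for capturing light fell together. In the antenna list, 16 of 21 members were lower at ZT21, with a median of −2.63. LHCB1.2, a subunit of the main light-harvesting complex, had 1607, 1715 and 1430 FPKM at ZT9 and 22.0, 21.3 and 31.7 at ZT21, 63.4-fold lower in the means. LHCB1.5 fell from 5810, 6811 and 5729 FPKM to 115, 124 and 159, and LHCB2.2 from 395, 527 and 305 to 6.77, 8.23 and 9.18. LHCB1.1 fell by 4.82 on the log2 scale. LHCB1.3 kept the most transcript of the family at night, with 1504, 1829 and 1753 FPKM against 11046, 11660 and 8884 by day. The LHCB1 and LHCB2 genes are near-identical copies that can share reads, so the split among them is uncertain, and LHCB1.5 overlaps AT2G34410. The peak of LHCB1.2 was at ZT5, with 4266 FPKM. LHCB4.3 and LHCB7, minor antenna genes, were the 2 risers, and neither call held after rescaling. That of LHCB4.3 was also lost without any 1 library other than replicate 3 of ZT9, and that of LHCB7 without replicate 2 or 3 of ZT21 or replicate 1 of ZT9.

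Photosystem and electron transport genes followed at a smaller scale, with 20 of 29 members lower, 0 higher and a median of −1.07. PSAD1, a stromal subunit of photosystem I that docks ferredoxin, fell from 1580, 1821 and 1627 FPKM to 167, 253 and 233. PSAD2, its second copy, fell 7.10-fold, PSAO of the same photosystem 5.64-fold and PSBQ2, of the oxygen-evolving complex of photosystem II, 4.28-fold in the means. Falls called in this list numbered 16 to 21 when single libraries were left out. In chlorophyll synthesis 3 of 24 members were lower and 1 higher, where 8.06% and 19.5% of all loci were. After rescaling 6 members were lower and 0 higher. PORB, the light-dependent protochlorophyllide reductase, had the widest fall, from 270, 367 and 257 FPKM to 41.7, 56.0 and 47.4. GLK1, a transcription factor for photosynthesis genes, fell by 1.18 on the log2 scale. CRD1, a cyclase of the pathway, was lower by 0.55 and HEMA1, its first enzyme, higher by 0.67 ± 0.19. The call of CRD1 was lost without replicate 1 or 3 of ZT21 or replicate 2 of ZT9, and that of HEMA1 after rescaling and without replicate 2 or 3 of ZT21 or replicate 3 of ZT9.

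Carbon fixation genes were not called lower as light capture genes were. Of 20 Calvin cycle genes, 8 were higher at ZT21, 0 lower and 12 not called, with a median of 0.61. Over all loci 19.5% were higher and 8.06% lower. RCA, the activase of Rubisco, had 1444, 1926 and 1497 FPKM at ZT9 and 3529, 6132 and 4449 at ZT21 (log2 1.51 ± 0.26, adjusted p = 0.000598). FBA1, a plastid aldolase, rose from 210, 349 and 351 FPKM to 772, 1558 and 1064. GAPA1, a plastid glyceraldehyde phosphate dehydrogenase, rose 3.04-fold and SBPASE, a phosphatase of the regeneration phase, 2.32-fold in the means. Replicate 2 of ZT21 was the highest of the 6 libraries in all 4. Summed over the list it reached 32389 FPKM, against 15770 and 20925 in the other 2 libraries of ZT21, and without it, or without replicate 1 of ZT9, 5 genes were called. After rescaling 4 were called, where 11.0% of all loci were higher. The Rubisco small subunits RBCS1B, RBCS2B and RBCS3B had higher values in every library of ZT21, but none of the 4 small subunit genes passed the test, and these copies can share reads.

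Photorespiration genes gave 9 of 19 higher and 2 lower (median 0.64), or 4 and 2 after rescaling. Rises numbered 5 without replicate 2 of ZT21 or replicate 1 of ZT9. The shares of all loci were 19.5% higher and 8.06% lower, or 11.0% and 12.9% after rescaling. GGT1, a peroxisomal aminotransferase, rose from 585, 624 and 573 FPKM to 1511, 2516 and 1634, and GOX1, a glycolate oxidase, rose 2.62-fold in the means. The catalases, which break down the hydrogen peroxide of this pathway, moved in opposite directions. CAT2 had 98.8, 146 and 93.3 FPKM at ZT9 and 515, 988 and 567 at ZT21 (log2 2.57 ± 0.24, adjusted p = 2.54e-06). CAT3 had 6408, 6540 and 5583 FPKM at ZT9 and 1817, 1146 and 2000 at ZT21 (log2 −1.94 ± 0.26, adjusted p = 6.31e-05). CAT3 remained the higher of the pair at both times, in FPKM.

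**Figure D2:**
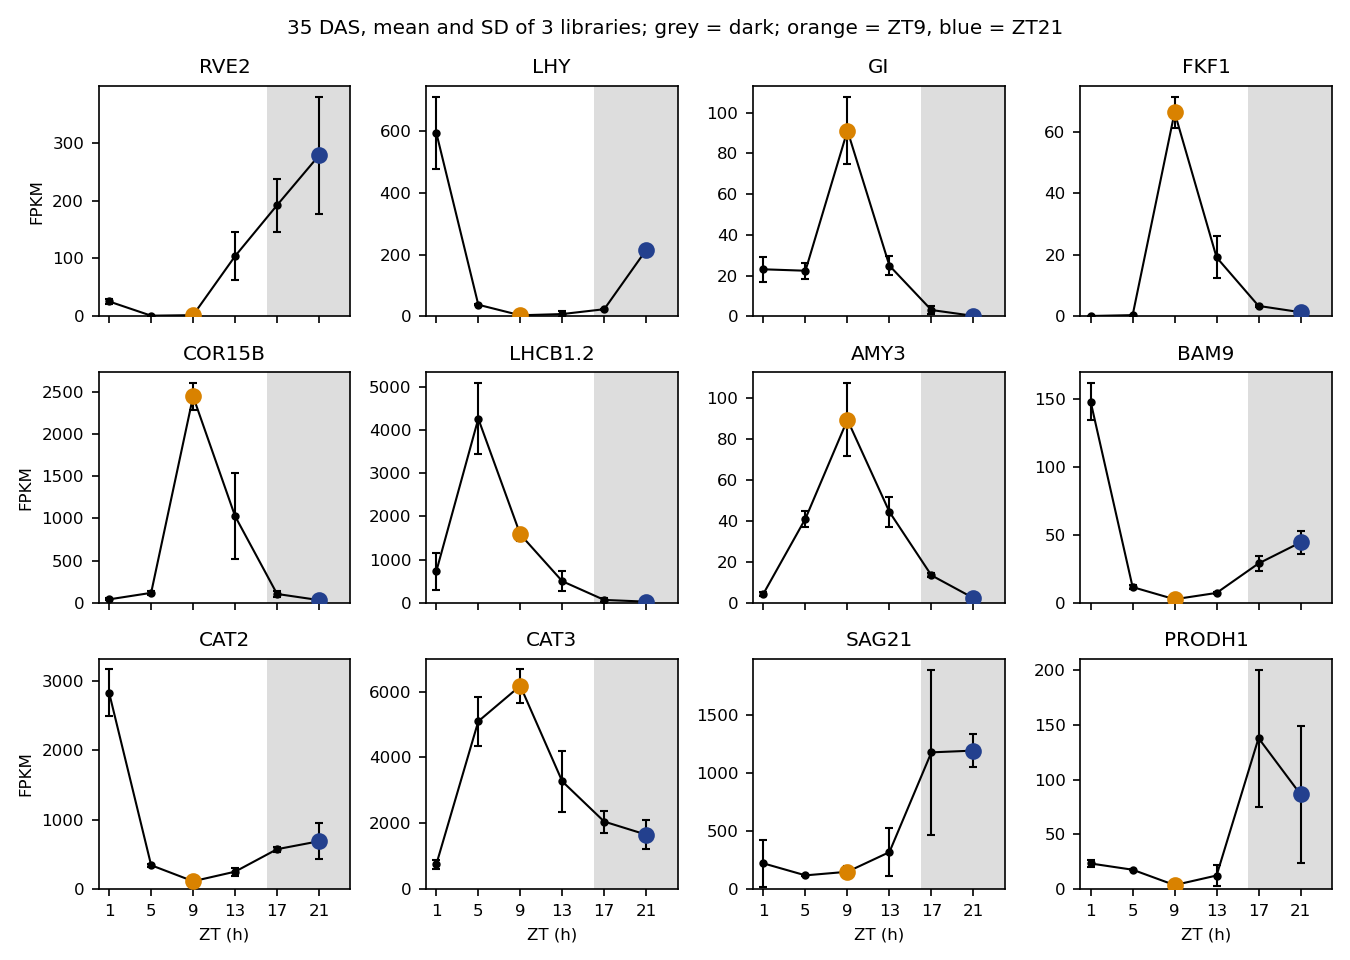
Mean FPKM with SD of 3 libraries at the 6 times of 35 DAS for 12 loci, against ZT in hours, with the dark in grey, ZT9 in orange and ZT21 in blue. GI, FKF1, COR15B, AMY3 and CAT3 peak at ZT9, LHCB1.2 at ZT5, RVE2 at ZT21, and LHY, BAM9 and CAT2 at ZT1.

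Starch is made by day and broken down at night, yet transcripts of its breakdown enzymes were mostly lower at ZT21, with 13 of 20 lower, 4 higher and a median of −1.32. AMY3, a plastid alpha-amylase, had 71.1, 107 and 90.4 FPKM at ZT9 and 1.84, 3.11 and 1.93 at ZT21, 39.0-fold lower in the means (log2 −4.78 ± 0.18, adjusted p = 9.98e-10). GWD1, the glucan water dikinase that opens the granule surface, fell 8.30-fold, and ISA3, a debranching enzyme, 10.9-fold. BAM9, a member of the beta-amylase family without known catalytic activity, went the other way, from 3.35, 2.72 and 1.60 FPKM to 34.4, 48.9 and 49.9. The other 3 risers, BAM1, BAM2 and BAM4, had log2 values of 0.95, 0.92 and 0.46. The call of BAM1 was lost without replicate 1 or 3 of ZT21 or replicate 2 or 3 of ZT9, that of BAM2 without replicate 3 of ZT9, and that of BAM4 without replicate 2 or 3 of ZT21 or replicate 2 of ZT9. Rises numbered 2 without replicate 3 of ZT21 or without replicate 2 or 3 of ZT9, and also after rescaling. Starch synthesis genes gave 8 of 17 lower and 0 higher (median −0.62). SBE2.1, a branching enzyme, fell 5.16-fold, PTST, which targets granule-bound starch synthase to the granule, 3.96-fold, SS4, which starts granules, 2.46-fold and ISA2, a debranching subunit, 2.28-fold. Without replicate 1 of ZT9 12 falls and 0 rises were called, and without replicate 3 of ZT9 7 falls and 2 rises.

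Genes of low energy and darkness changed in part. In the carbon starvation list, 4 of 18 were higher and 0 lower, a share near the 19.5% of all loci. PRODH1, the mitochondrial proline dehydrogenase, had 3.87, 2.38 and 4.69 FPKM at ZT9 and 99.9, 18.3 and 142 at ZT21 (log2 3.84 ± 0.59, adjusted p = 0.000245). Replicate 2 was lowest of the ZT21 libraries, as it was for PRR7. DIN10, a raffinose synthase family gene induced in the dark, rose from 9.13, 9.30 and 2.43 FPKM to 26.0, 18.7 and 42.9, and BZIP63, a factor downstream of the energy sensor kinase SnRK1, rose 3.97-fold. DIN9, a phosphomannose isomerase, rose by 0.96 ± 0.28, lost without replicate 1 or 3 of ZT21 or replicate 2 of ZT9. The kinase subunits KIN10 and KIN11 had log2 values of 0.14 and 0.01. Of 8 trehalose phosphate synthases, TPS9 rose 3.87-fold, and TPS10 was lower by 0.67 with overlapping libraries, a call lost without replicate 1 or 2 of either time and with the batch number in the model (adjusted p = 0.0558).

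Nitrogen and sulfur assimilation had 8 of 17 higher and 2 lower (median 0.71), and 5 rises without replicate 2 of ZT21 or replicate 3 of ZT9. NRT1.1, a nitrate transporter and sensor, had 14.9, 25.7 and 40.5 FPKM at ZT9 and 155, 122 and 157 at ZT21 (log2 2.48 ± 0.29). NIA2, the main nitrate reductase, rose from 241, 203 and 149 FPKM to 440, 660 and 443. BT1, a BTB protein linked to nitrate use, fell from 34.5, 47.3 and 42.4 FPKM to 2.94, 10.4 and 7.67. Its relative BT2 rose from 1.16, 0.974 and 0.578 FPKM to 2.06, 6.58 and 12.9, a call lost without replicate 2 or 3 of either time.

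Senescence genes were more often higher than lower at ZT21. Of 22 tested, 10 were higher and 1 lower, where 19.5% and 8.06% of all loci were, with a median of 1.27. SAG21, a late embryogenesis abundant protein of mitochondria, had 203, 114 and 129 FPKM at ZT9 and 1228, 1032 and 1312 at ZT21 (log2 3.03 ± 0.63, adjusted p = 0.00233). WRKY6, a transcription factor of senescence and defence, rose 4.11-fold from 5.66, 5.32 and 5.93 FPKM. SAG13, a dehydrogenase used as a marker, went from 32.2, 4.65 and 17.1 FPKM to 145, 52.3 and 161, and NAP, a NAC factor that drives leaf senescence, from 72.7, 24.7 and 27.5 to 185, 87.3 and 182. The times did not overlap in either, but both calls were lost without replicate 1 or 3 of ZT21 or replicate 2 or 3 of ZT9. That of NAP was also lost after rescaling. The mean of NAP was 147 FPKM at ZT5, in the light, against 80.6 at ZT17 and 152 at ZT21. The count of 10 became 6 without replicate 3 of ZT21 or replicate 2 or 3 of ZT9, and 7 without replicate 1 of ZT21. After rescaling it was 8, where 11.0% of all loci were higher. SAG12, the protease that marks late senescence, did not reach 1 FPKM in 3 of the 18 libraries of this age and was not tested. ANAC019, a stress NAC factor, was the 1 member that fell, by 1.45 on the log2 scale.

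Salicylic acid and defence genes had a median of 2.18, yet 2 of 20 were called. Values of ZT21 lay above those of ZT9 in every library for 17 of the 20, where this was so for 33.1% of all loci. PR1, the classic marker of salicylic acid defence, had 40.6, 5.83 and 5.70 FPKM at ZT9 and 874, 102 and 800 at ZT21 (log2 5.07 ± 1.86, adjusted p = 0.054). ICS1, the main enzyme of salicylic acid synthesis, had 9.22, 7.53 and 9.68 against 109, 41.6 and 71.6 FPKM (adjusted p = 0.0951). The spread in the fit comes from all 6 times of this age. Libraries of one time differed widely in PR1 at both ZT9 and ZT21, and in PR5 at ZT9 only. PR5, a thaumatin-like protein, had 400, 20.6 and 48.6 FPKM at ZT9 and 569, 665 and 657 at ZT21, and replicate 1 was the highest library of ZT9 for PR1, PR2 and PR5. The called members were SARD1, a regulator of ICS1 (log2 2.68 ± 0.94), and EDS1, a lipase-like immune regulator (1.73 ± 0.62). Neither was called after rescaling, nor when any 1 of the 6 libraries was left out. The SD of EDS1 was 2.03 FPKM at ZT9 and 12.3 at ZT21. At the other times it was 36.5 at ZT1, 1.56 at ZT5, 28.8 at ZT13 and 36.4 at ZT17.

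Jasmonate genes went down, with 10 of 23 lower, 0 higher and a median of −1.03. AOC2, an allene oxide cyclase of jasmonate synthesis, had 1122, 1406 and 1029 FPKM at ZT9 and 117, 188 and 75.8 at ZT21, 9.35-fold lower in the means. LOX2, the plastid lipoxygenase at the start of the pathway, fell 5.23-fold. CORI3, a jasmonate-induced aminotransferase, fell 7.80-fold and ST2A, a sulfotransferase acting on a hydroxylated jasmonate, 14.8-fold. The AOC genes are close copies that can share reads. Leaving out single libraries gave 9 to 13 falls. In the abscisic acid list, 4 of 12 were higher and 3 lower, where 19.5% and 8.06% of all loci were. RD29B and RAB18, abscisic acid response genes, fell by 2.23 and 2.07 on the log2 scale and NCED3, a synthesis enzyme, by 1.52, while CYP707A3, which breaks the hormone down, rose from 0.289, 0.423 and 0.0714 FPKM to 3.30, 2.39 and 2.44.

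**Figure D3:**
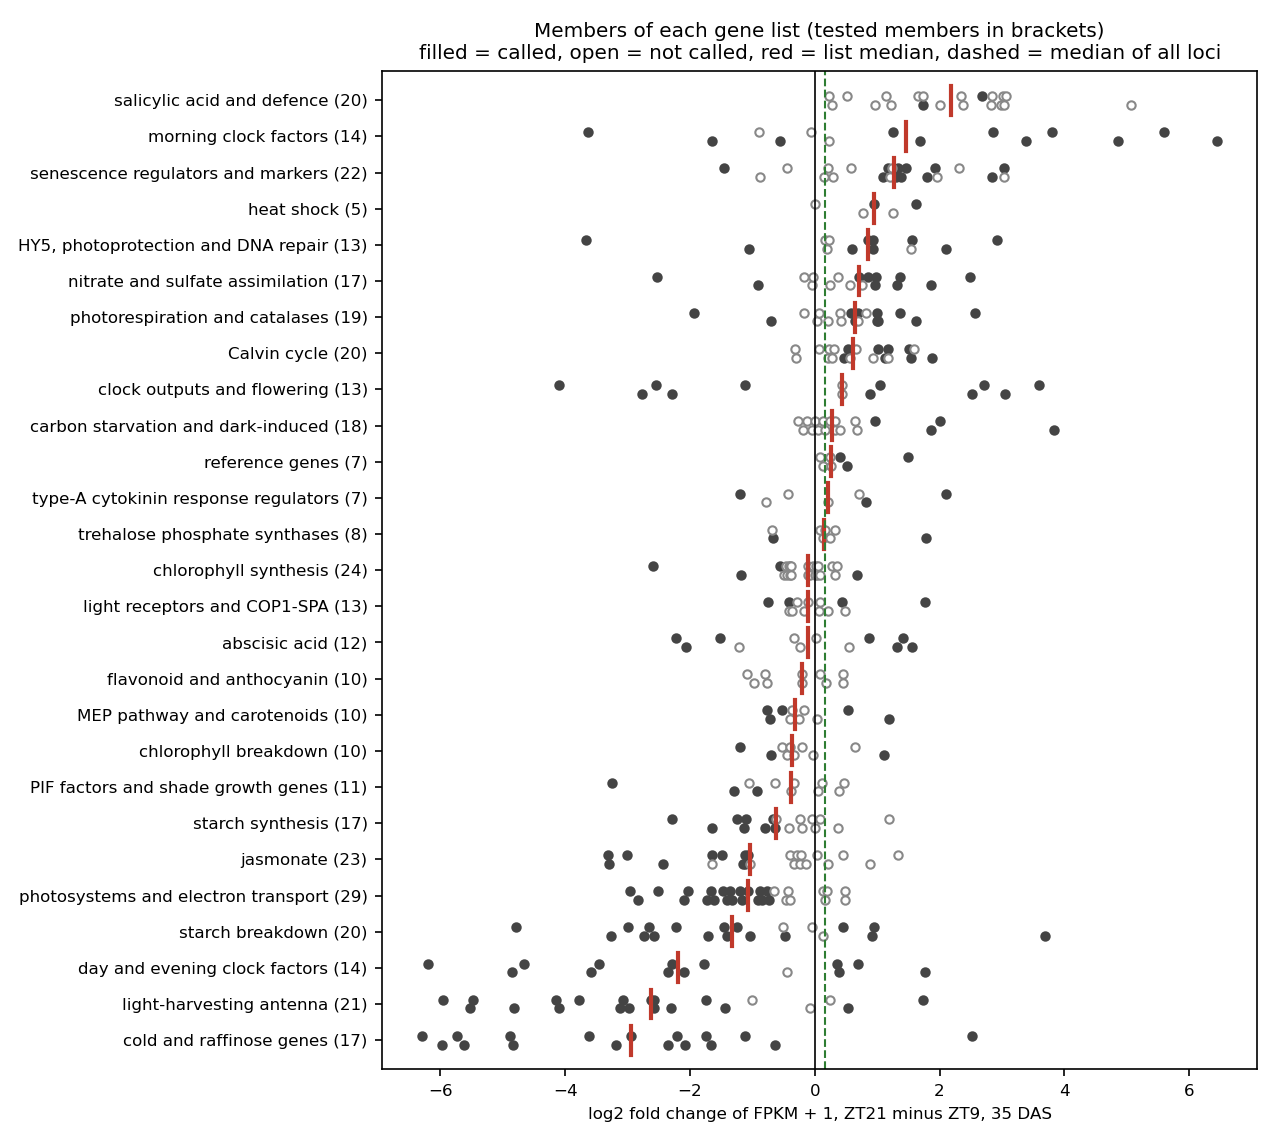
Log2 change of FPKM + 1 from ZT9 to ZT21 at 35 DAS for each tested member of the gene lists, filled where called, with the list median in red and the median of all loci, 0.17, dashed. List medians run from 2.18 for salicylic acid and defence, where 2 of 20 dots are filled, to −2.94 for cold and raffinose genes, where 17 of 17 are.

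Light signalling genes changed in smaller numbers. PIF4, a bHLH factor that promotes growth, had 128, 139 and 125 FPKM at ZT9 and 15.6, 8.60 and 15.5 at ZT21 (log2 −3.25 ± 0.29, adjusted p = 1.7e-06). PIF7 fell by 1.29 and PIF5 by 0.92 on the log2 scale, the latter not called without replicate 2 of ZT21, and 0 of the other 8 genes of the PIF and shade list passed. Of 13 light receptor and COP1-SPA genes, 2 were higher and 2 lower, or 1 and 4 after rescaling, where 19.5% and 8.06% of all loci were called higher and lower. SPA3, a partner of the ubiquitin ligase COP1, rose 3.66-fold and PHOT1, a blue-light receptor, fell by 0.75 on the log2 scale. COP1 was higher by 0.43 and the cryptochrome CRY2 lower by 0.41, and the call of COP1 was lost after rescaling and without replicate 3 of ZT21 or replicate 1 of ZT9. That of CRY2 was lost without any 1 library other than replicate 2 of ZT21. In the HY5 list, 7 of 13 were higher and 2 lower (median 0.85), or 5 and 2 after rescaling and 4 higher without replicate 3 of ZT21 or replicate 2 of ZT9. HYH, the homologue of the light factor HY5, rose from 2.00, 3.22 and 5.74 FPKM to 31.6, 31.2 and 34.0, and HY5 itself rose 3.35-fold. The B-box genes split, with BBX25 4.60-fold higher and BBX22 14.6-fold lower in the means.

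Flavonoid genes had 0 of 10 tested members called by limma, and also 0 after rescaling, with 0 at an unadjusted p under 0.05. One library stood apart. CHS, chalcone synthase, the entry enzyme of flavonoid synthesis, had 1.05, 3.50 and 243 FPKM at ZT9 and 34.5, 13.9 and 9.96 at ZT21. DFR, a later enzyme toward anthocyanin, had 1.58, 3.32 and 203 against 28.0, 14.8 and 11.7. Replicate 3 of ZT9 was the highest of the 6 libraries for both. The median of the list was −0.20 with all libraries, 0.68 without replicate 3 of ZT9, −1.07 and −0.79 without replicate 1 or 2 of ZT9, and −0.46 to −0.05 without single libraries of ZT21.

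**Figure D4:**
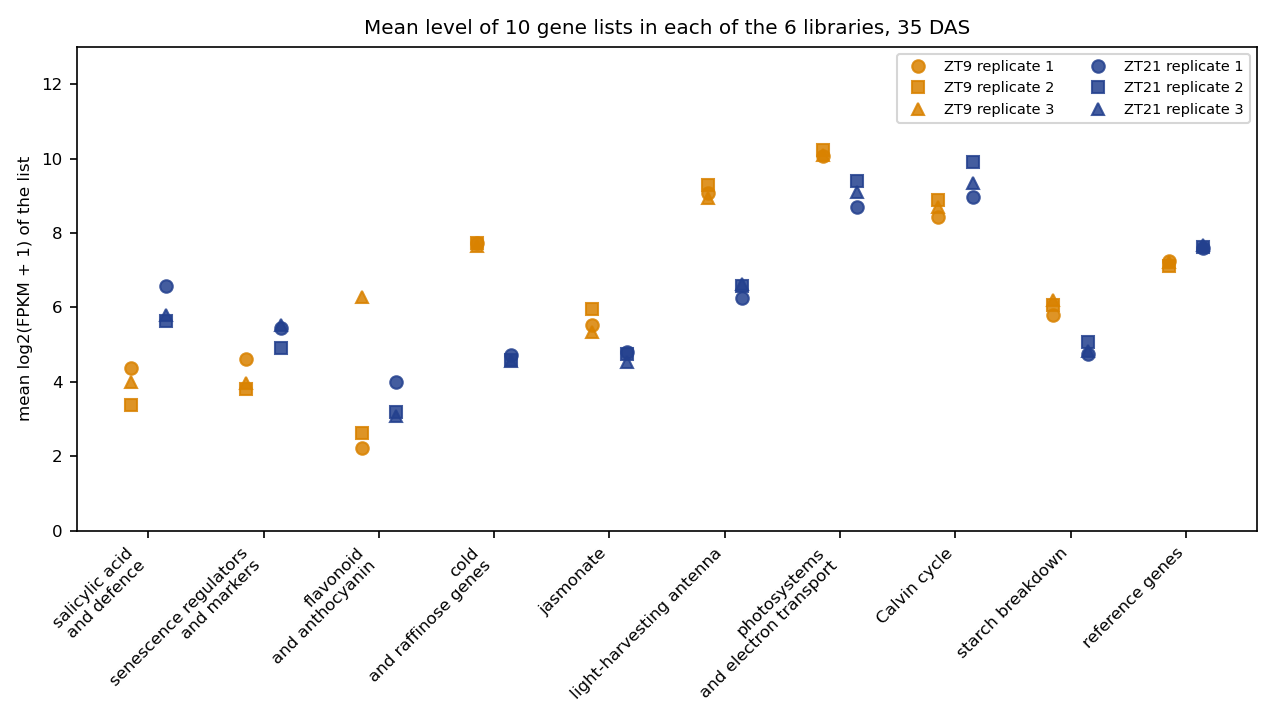
Mean log2(FPKM + 1) over the tested members of 10 gene lists in each of the 6 libraries of 35 DAS, with ZT9 in orange, ZT21 in blue and the replicate number as the shape. Replicate 3 of ZT9 stands at 6.27 for flavonoid genes, against 2.21 and 2.62 in the other libraries of ZT9, and replicate 2 of ZT21 is the highest library for the Calvin cycle.

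Among the remaining lists, the MEP pathway and carotenoids had 2 of 10 higher, a share near the 19.5% of all loci, and 3 lower, or 1 and 5 after rescaling, with HDR, its last enzyme, 2.29-fold higher, HDS, the step before, 1.72-fold lower and MDS 1.65-fold lower. PSY, phytoene synthase, was higher by 0.54, a call lost after rescaling and without replicate 2 of ZT21. Chlorophyll breakdown had 1 of 10 higher (SGRL, a magnesium dechelatase relative, 2.26-fold) and 2 lower (CLH1, a chlorophyllase, 2.2-fold, and NYC1, a chlorophyll b reductase, 1.63-fold, lost without replicate 1 or 2 of ZT21 or replicate 1 of ZT9). Over all loci 19.5% were higher and 8.06% lower, and counts in lists this small, here and below, rest on few members. Of 7 type-A response regulators of cytokinin, ARR16 rose 4.35-fold and ARR8 1.95-fold, and ARR7 was lower by 1.19 on the log2 scale, a call lost when any 1 library was left out. Of 5 heat shock genes, the chaperones HSP90.1 and HSP101 were higher. The call of HSP90.1 was lost without replicate 1 of ZT21 or replicate 2 or 3 of ZT9, and that of HSP101 without replicate 1 of either time. Of 7 genes often used as references, ACT2, an actin, rose from 281, 263 and 289 FPKM to 703, 817 and 844 (log2 1.5 ± 0.14), PP2AA3 by 0.41 and UBC9 by 0.52. ACT2 alone of these was called after rescaling. The UBC9 call was lost without any 1 library of ZT21 or without replicate 2 of ZT9.

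Loci outside the lists were among the strongest changes. The falls included AT4G30650, of a low temperature and salt responsive family in the RefSeq annotation, from 798, 895 and 1250 FPKM to between 7.69 and 16.4 in all 3 libraries of ZT21, the largest fall called at 6.34 on the log2 scale. CIPK20, a kinase that pairs with calcium sensors, fell from 33.6, 37.3 and 41.0 FPKM to a value listed at 0 in 2 libraries and at 0.0867 in the third. AT1G56300, a DnaJ-domain gene, fell 48.1-fold, NUDT8, a nudix hydrolase, 37.4-fold and AT5G17460 42.1-fold in the means. COR15A, the neighbour and copy of COR15B, fell 26.8-fold, but is a member of the cold list already counted above. The rises were less even between libraries. ARD1, an enzyme of methionine salvage, had 2.58, 0.140 and 3.73 FPKM at ZT9 and 261, 30.7 and 143 at ZT21 (log2 5.30 ± 1.74, adjusted p = 0.0341). AIG1, an immune-induced gene, had 1.56, 0.607 and 0.916 against 123, 14.5 and 72.9. The calls of ARD1, AIG1, PUB54, AT3G28510, NUDT6 and AT2G44240 depended on single libraries. Each was lost without replicate 1 or 3 of ZT21 or replicate 2 or 3 of ZT9. All but those of AIG1 and AT2G44240 were also lost without replicate 1 of ZT9, and that of AT2G44240 after rescaling. No library of ZT9 reached any of ZT21 at these loci, but the rule that picked them required this. Even rises were AT4G15430, of a dehydration-responsive family, from 0.510, 0.351 and 0.413 FPKM to 18.6, 17.5 and 23.5, and OXS3, a stress gene that overlaps AT5G56544, 17.3-fold. AT1G43910 rose by 3.96 ± 0.77 and overlaps AT1G43900. AT3G49551 was listed at 0 in all libraries of ZT9 and at 12.6, 14.3 and 14.9 at ZT21, and overlaps AT3G49550.

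The same 2 times at 21 DAS show where the old leaf differed. The difference ZT21 minus ZT9 was higher at 35 than at 21 DAS for 665 of 18729 loci (3.55%) and lower for 1089 (5.81%), 9.37% in all, by limma over all 36 libraries. These counts rest on every replicate number: they were 105 and 208 without replicate 1, 350 and 776 without replicate 2, and 119 and 208 without replicate 3. At 32 of these loci ZT21 was called higher at 35 DAS and lower at 21 DAS, and at 46 the reverse. Nitrogen and sulfur genes stood out in number, with 9 of 17 lower and 1 higher in this difference and a median of −0.78 against 0.02 over all loci. At 21 DAS 15 of these 17 were higher at ZT21, with a median of 1.56. Of all 18729 loci, 6126 were higher and 2556 lower at that age, with a median of 0.14.

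NIA1, a nitrate reductase, changed direction. At 21 DAS it had 4.63, 5.15 and 2.95 FPKM at ZT9 and 127, 86.3 and 54.6 at ZT21. At 35 DAS it had 19.6, 15.2 and 14.1 at ZT9 and 5.96, 11.3 and 7.89 at ZT21, so the high time at one age was the low time at the other. Its difference between ages was −4.96 ± 0.45 log2 (adjusted p = 6.35e-08), though the fall at 35 DAS alone (−0.91 ± 0.29) was not called without replicate 1 or 3 of ZT21 or 1 or 2 of ZT9. BT1 did the same, with 13.5, 14.6 and 14.2 FPKM at ZT9 and 58.3, 58.1 and 54.3 at ZT21 at 21 DAS, against its fall at 35 DAS (difference −4.46 ± 0.37, adjusted p = 1.45e-08). BT2 rose at both ages, from 6.75, 8.44 and 6.33 FPKM to 256, 308 and 278 at 21 DAS, by 3.25 log2 units more than at 35 DAS. NIA2 also rose less at 35 DAS, by 3.02 log2 units. These 4 differences were called whichever replicate number was left out.

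PIF and shade genes had 4 of 12 higher in the difference and 0 lower, where 3.55% and 5.81% of all loci were. The median was 0.66 against 0.02 over all loci. PIF4 at 21 DAS went from 127, 122 and 108 FPKM at ZT9 to 0.457, 0.367 and 0.562 at ZT21. At ZT9 the ages overlapped in level, and at ZT21 all 3 libraries of 35 DAS stood above all 3 of 21 DAS (difference 3.10 ± 0.40, adjusted p = 1.96e-05). IAA29, an auxin response gene, had 25.1, 23.5 and 24.0 FPKM at ZT9 of 21 DAS but 3.28, 2.52 and 5.37 at 35 DAS, and near 1 to 3 FPKM at ZT21 of both ages (difference 2.92 ± 0.43). SAUR22, an auxin-induced growth gene outside this list, had the same pattern. It had 27.8, 23.7 and 33.9 FPKM at ZT9 of 21 DAS and at most 1.53 at 35 DAS (difference 3.05 ± 0.46). PIF4, IAA29 and SAUR22 were called whichever replicate number was left out, while PIF5 (difference 1.41) was not called without replicate 3.

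In the clock, the difference was higher for RVE7 (1.80), LNK2 (2.2), LNK4 (2.31), PRR7 (1.23), ELF4 (1.27) and TOC1 (0.74) and lower for RVE8 (−1.17) and RVE5 (−0.84), all on the log2 scale. PRR7 at ZT21 had 0.0750, 0 and 0.0548 FPKM at 21 DAS and 2.56, 0.613 and 2.87 at 35 DAS, with 55.4 to 75.1 FPKM at ZT9 over both ages. RVE7 was called whichever replicate number was left out, while LNK2 and RVE8 were not without replicate 1, LNK4, PRR7 and RVE5 without replicate 1 or 3, ELF4 without replicate 1 or 2, and TOC1 without any 1 of the 3. DIN10 fell at 21 DAS, from 43.4, 49.3 and 47.0 FPKM to 27.5, 36.1 and 28.0, and rose at 35 DAS (difference 2.62 ± 0.46, lost without replicate 3). PRODH1 rose at both ages, at 21 DAS from 5.53, 6.90 and 6.07 FPKM to 11.2, 14.8 and 16.7 (difference 2.77 ± 0.57, lost without replicate 1 or 3). LOX2 had a log2 value of 0.03 ± 0.17 at 21 DAS and fell at 35 DAS (difference −2.46 ± 0.42, lost without replicate 1). The Calvin cycle, salicylic acid, chlorophyll breakdown and heat shock lists had 0 members called by limma in this difference. In that order, 3 of 20, 1 of 20, 1 of 10 and 2 of 5 members had an unadjusted p under 0.05, against 4494 of 18729 loci. Over all loci 9.37% were called, so 0 called in lists of this size was not read as a lack of change.

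**Figure D5:**
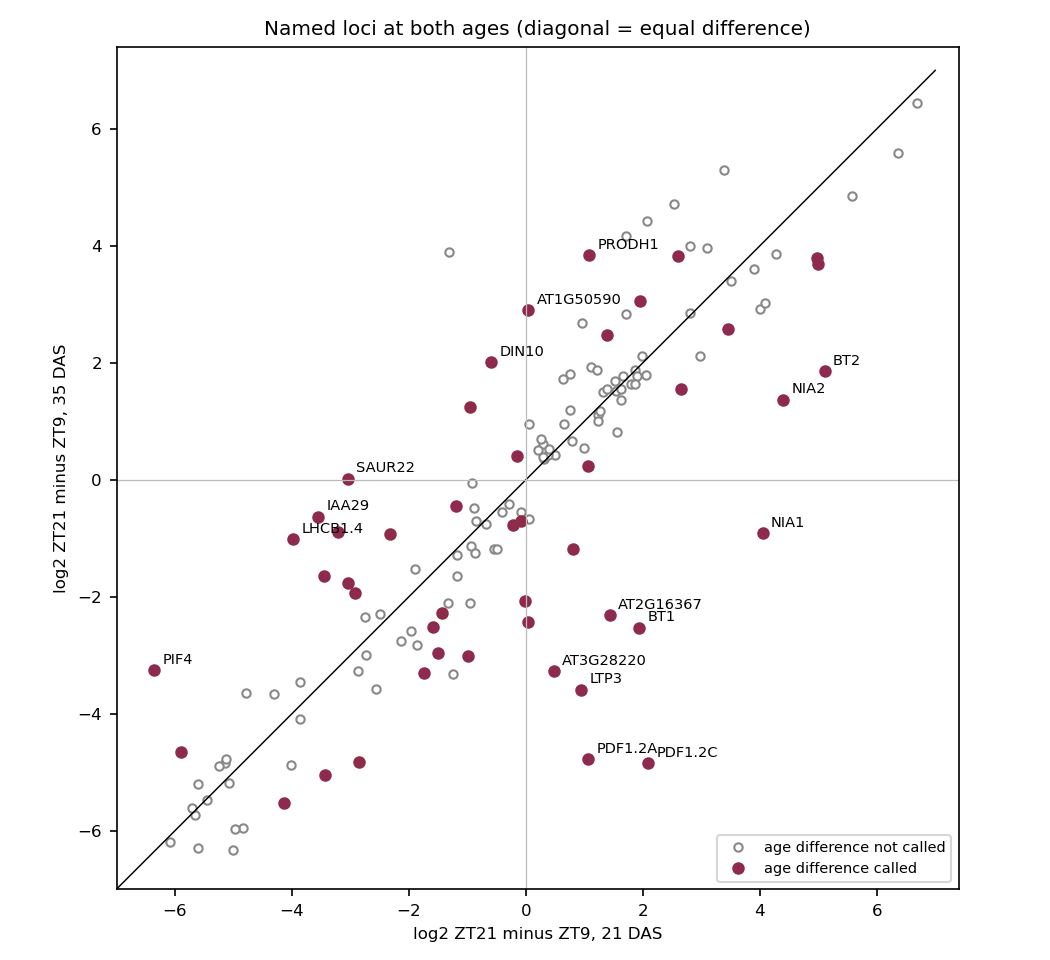
Log2 change from ZT9 to ZT21 of the named loci at 21 DAS (x axis) and at 35 DAS (y axis), filled where limma called the difference between ages (46 of 143 loci drawn), with the diagonal marking equal change. NIA1 and BT1 lie right of 0 and below 0, and PIF4, IAA29 and SAUR22 lie above the diagonal.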

How the data were processed

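RNA-seq of leaf polyadenylated RNA was analysed from the FPKM table the authors deposited, which lists 41342 transcripts for 36 libraries (3 libraries in each of 12 groups of age and time). FPKM was summed over the transcripts of a locus, giving 33279 loci. Per the submitters' processing notes, STAR 2.3.0e, HTSeq, edgeR 3.12.1 and the TAIR10 build were used. How FPKM was computed, and whether reads were counted by strand, are not given in the sources used here, so overlapping loci and near-identical copies are uncertain. The table holds 0 columns of other per-sample values.

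FPKM is not a count, so limma 3.58.1 in R 4.3.3 was run on log2(FPKM + 1), a scale that understates changes of low loci. Loci with at least 1 FPKM in at least 3 of the 18 libraries of 35 DAS were kept. One fit over the 6 times of 35 DAS shared one estimate of spread, and p-values were adjusted by Benjamini-Hochberg over 17937 loci with a threshold of 0.05. The difference between ages was tested in a fit over 36 libraries and 12 groups, with weights for the larger spread at 35 DAS, on 18729 loci. A fold given for a gene is a ratio of mean FPKM, while the counts of loci past 2-fold and 8-fold were taken on the log2(FPKM + 1) scale. The fits were tested on simulated data with known changes.

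Depth is not stated. Of 18445 low values, 79.1% lay within 0.1 of a whole multiple of one step, which is how relative depth was read. Values of 1 step set the step themselves: of the 7306 values of 2 steps or more 65.5% did so, where 20% would by even spread, too few to recover counts. FPKM intervals were therefore not computed. Batch numbers did not pair libraries: deviations of libraries with the same number correlated at 0.00156 on average (45 pairs).

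Loci were named by a rule: the 15 largest rises and falls called with no overlap of libraries and a mean of at least 10 FPKM, the 8 largest in each direction of the age difference, up to 4 called loci of each list with a mean of at least 2 FPKM, and all clock members. Other members named, such as CO, FT, PR1, ICS1, PR5, CHS, DFR, the Rubisco subunits, KIN10, KIN11, BAM2 and BAM4, were chosen after their values were seen. The members, the 27 gene lists and the 6 marker lists (465 of 467 members were in the table; bZIP1 and bZIP11 were not analysed here) were chosen with earlier results of these data known. Promoters came from the TAIR10.1 genome and RefSeq annotation, where 32814 of 32815 loci on the same chromosome overlapped the locus of the same identifier. Alternatives were other pseudocounts (0.1, 0.5), no filter and a filter of 5 FPKM, rescaling to the median ratio, the most abundant transcript, other sets of libraries, a batch block, and leaving out each library. Figures were drawn with matplotlib 3.10.9.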

Additional observations from a re-analysis of the deposited data

Results flagged for a closer look

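For 49 named loci the change from ZT9 to ZT21 differed between 35 and 21 DAS by limma over all 36 libraries. Values below are the log2 change at 35 DAS minus that at 21 DAS. Groups of 3 libraries are too small to be searched for outlying libraries.

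The plant defensins PDF1.2C (−6.93) and PDF1.2A (−5.86), near-identical copies, and the lipid transfer protein LTP3 (−4.54) had large negative differences, as did the nitrate reductase NIA1 (−4.96) and BT1 (−4.46). PDF1.2A had 144, 530 and 34.1 FPKM at ZT9 and 0, 15.6 and 6.83 at ZT21 of 35 DAS, and 7.63, 12.4 and 6.89 against 18.6, 9.90 and 38.9 at 21 DAS. Replicate 2 was the highest library of ZT9 at 35 DAS for PDF1.2A, PDF1.2C and LTP3. The differences of PDF1.2C and AT3G28220 (−3.75) were lost without replicate 1. Those of PDF1.2A and AT2G16367 (−3.74) were lost without replicate 1 or 3, and that of LTP3 without replicate 1 or 2.

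LHCB1.4 (2.98) is in the list although its change at 35 DAS was not called. It had 7544, 6741 and 11352 FPKM at ZT9 and 234, 459 and 1352 at ZT21 of 21 DAS, and 137, 104 and 48.9 against 43.8, 38.6 and 49.1 at 35 DAS, so its level was far lower in the old leaf at both times. The call was lost without replicate 1, 2 or 3. AT2G44240 (3.88) was listed at 0 in all 6 libraries of ZT9 and ZT21 at 21 DAS, and its call was also lost without replicate 1, 2 or 3. GSTU11 (2.92), a glutathione transferase, and AT1G50590 (2.87) were high at ZT21 of 35 DAS in replicates 1 and 3 and at 1.71 and 0.791 FPKM in replicate 2. Both differences were lost without replicate 1 or 3.

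Other loci with a lower difference were BT2 (−3.25), NIA2 (−3.02), LOX2 (−2.46), RD29B (−2.19), RAB18 (−2.04), CORI3 (−2.02), ARR7 (−2.0), LHCB1.1 (−1.97), AT5G17460 (−1.63), AOC2 (−1.55), PSAD1 (−1.45), LHCB1.5 (−1.39), BAM9 (−1.31), RVE8 (−1.17), HY5 (−1.09), PSAO (−0.93), CAT2 (−0.88), SBE2.1 (−0.85), RVE5 (−0.84), MDS (−0.63) and HDS (−0.55). Of these, BT2, NIA2 and PSAD1 were called whichever replicate number was left out.

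Other loci with a higher difference were PIF4 (3.10), SAUR22 (3.05), IAA29 (2.92), PRODH1 (2.77), DIN10 (2.62), LNK4 (2.31), LNK2 (2.2), RVE7 (1.80), PIF5 (1.41), ELF4 (1.27), PRR7 (1.23), OXS3 (1.22), CDF2 (1.1), NRT1.1 (1.09), CAT3 (0.99), TOC1 (0.74) and PP2AA3 (0.57). PIF4, SAUR22, IAA29 and RVE7 were called whichever replicate number was left out. PSAO, NRT1.1, LHCB1.1 and GSTU11 were not called after rescaling.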

How the results depend on the processing

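Of 2183 values of 146 named loci under the alternatives, 1984 kept the direction and the side of the threshold, 186 lost the call, 8 gained one and 5 changed sign. The sign changed for LNK3 (−0.06 with all libraries, −0.50 to 0.40 when single libraries were left out) and for SAUR22 (−0.05 after rescaling, −0.35 to 0.32 when single libraries were left out), neither of which was called. The cause was not tested. Rescaling moved the counts of 3503 higher and 1446 lower loci to 1980 and 2311. Leaving out single libraries gave 2344 to 3245 higher and 1081 to 1324 lower loci. The other alternatives gave 3242 to 5159 higher and 1318 to 1999 lower, the most when all 36 libraries shared one spread. For the difference between ages, 295 of 390 values of 49 loci were kept, 95 lost the call and 0 changed sign. Leaving out one replicate number gave 105 to 350 loci higher and 208 to 776 lower, fits with fewer libraries.

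With the batch number as a replicate block, 3427 loci were higher and 1436 lower, and 667 and 1088 in the difference between ages. The block ended the calls of TPS10, LKP2 and PDF1.2C and that of NRT1.1 in the difference between ages, and changed no other named call. Libraries of one number did not deviate together, so the block is not a pairing.

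FPKM hide depth, low loci move in steps of single fragments, and 3 libraries of one time give few degrees of freedom.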
